A study of Mus musculus with 5 samples.

Results

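The enzymes that build, elongate and desaturate fatty acids were followed gene by gene in cultured epidermal stem cells with and without Angptl4. The set held 10 genes of the 17657 in the expression table: Fasn, Acaca, Acly, Acss2, Scd1, Scd2, Fads1, Fads2, Elovl6 and Srebf1. They were taken by gene symbol, and all 10 were among the 12957 genes with enough counts to be tested. The KO group was 2 RNA-seq libraries of epidermal stem cells, the keratinocyte progenitors of skin, from Angptl4 knockout mice. The WT group was 3 libraries of the same cells from wild-type mice. The mice of both groups were male, of strain C57BL/6 and labelled with a time of 8 weeks, and the cells of both were grown in KGM2, a keratinocyte growth medium. Angptl4 encodes a secreted inhibitor of lipoprotein lipase, and the labels do not give the deleted region. Whether libraries within KO or within WT are different mice or cultures is not labelled. The p-values therefore reflect the spread among these libraries alone, and it may be technical.

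Fatty acids are made in the cytosol from acetyl-CoA. Acly and Acss2 supply that acetyl-CoA, from citrate and from acetate, Acaca carboxylates it to malonyl-CoA, and Fasn joins the units into the saturated fatty acid palmitate. Elovl6 lengthens palmitate to stearate, Scd1 and Scd2 place the first double bond to give monounsaturated fatty acids, and Fads1 and Fads2 desaturate dietary polyunsaturated fatty acids. Srebf1 encodes SREBP1, a membrane-bound transcription factor that is released by cleavage and activates genes of this pathway, and skin uses the products for membranes, sebum and the lipid barrier.

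The promoters of the 3 genes with the largest falls that passed the test below are shown because SREBP1 is known to act at promoters of this pathway, together with NF-Y and Sp1. Each is 250 bases before and 50 bases from an annotated start site, from RefSeq on GRCm38.p6, 5′ to 3′ on the gene's strand. Capitals mark exact matches on either strand to CCAAT (NF-Y), GGGCGG (Sp1), CACGTG (E-box) or TCACNCCAC (a sterol regulatory element core).
Fasn (chr11:120824498-120824797, minus strand): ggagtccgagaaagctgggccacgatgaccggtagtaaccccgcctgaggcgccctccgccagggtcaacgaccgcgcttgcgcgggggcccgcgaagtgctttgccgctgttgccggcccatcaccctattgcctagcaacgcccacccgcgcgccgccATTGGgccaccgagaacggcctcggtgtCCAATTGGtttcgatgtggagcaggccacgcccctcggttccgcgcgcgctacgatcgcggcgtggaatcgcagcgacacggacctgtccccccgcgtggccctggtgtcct
Acly (chr11:100527951-100528250, minus strand): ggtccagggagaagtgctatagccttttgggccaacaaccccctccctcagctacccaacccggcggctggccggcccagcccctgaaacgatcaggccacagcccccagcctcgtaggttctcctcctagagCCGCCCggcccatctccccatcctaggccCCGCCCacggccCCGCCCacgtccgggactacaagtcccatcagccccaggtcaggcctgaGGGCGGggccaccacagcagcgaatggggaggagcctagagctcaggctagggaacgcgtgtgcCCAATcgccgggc
Elovl6 (chr3:129532136-129532435, plus strand): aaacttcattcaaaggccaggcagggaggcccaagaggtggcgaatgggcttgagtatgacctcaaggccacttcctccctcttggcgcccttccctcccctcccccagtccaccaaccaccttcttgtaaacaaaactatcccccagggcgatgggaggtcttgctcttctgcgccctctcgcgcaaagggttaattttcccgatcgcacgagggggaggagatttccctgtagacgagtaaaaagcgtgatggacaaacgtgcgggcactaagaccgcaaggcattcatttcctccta
Fasn held CCAAT 3 times, first at base -90, -62 and -59 from the start site, and the last 2 matches overlap on opposite strands. Acly held GGGCGG 4 times, at -117, -88, -76 and -27, and CCAAT once, at 38 after the start site. Elovl6 held none of the 4 motifs in this window. The RefSeq table had 9 promoters of 7 genes of the set (Acaca, Acly, Acss2, Elovl6, Fads2, Fasn and Srebf1), and Scd1, Scd2 and Fads1 had none there. CCAAT stood in 5 of these 9 promoters (of 4 genes), against 37.4% of all 32851 promoters of the same length. GGGCGG also stood in 5 of the 9 (of 4 genes), against 35.7% of all promoters. TCACNCCAC and CACGTG stood in 0 of the 9, against 1.24% and 7.15% of all promoters. These are matches of letters in a short window, and no binding was measured.

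The libraries were alike in depth, with 20507641 and 20283084 expected counts in KO1 and KO2 and 20686246 to 20773407 in the WT libraries. Angptl4 was at 0.86 and 1.11 TPM (a level per transcript length, scaled to the same total in every library) in KO1 and KO2, against 7.34, 6.09 and 4.34 TPM in WT1, WT2 and WT3, and fell by 2.56 ± 0.32 (SE) in log2 units (edgeR adjusted p = 0.00458). With a separate spread per group (limma-voom) Angptl4 did not pass, at -2.51 (adjusted p = 0.127, against 5.68e-09 to 0.0334 in the other alternatives). The KO libraries differed from each other far more than the WT libraries did, with a biological coefficient of variation of 28.9% in KO and 5.22% in WT over all tested genes. The cells carried the basal keratins at a summed level of 8 basal keratinocyte markers of 45265 and 35785 TPM in KO1 and KO2, against 35352 to 36530 TPM in WT. The 7 adipocyte markers in the table summed to 0.47 and 0.58 TPM in KO1 and KO2, against 1.03 to 1.42 TPM in WT.

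Of the 10 genes, 4 fell in KO cells, 0 rose and 6 did not pass (edgeR's quasi-likelihood test, Benjamini-Hochberg adjusted p under 0.05 over all tested genes). The 4 were Fasn, Acaca, Acly and Elovl6, which act in the steps between citrate and stearate. Over all tested genes 20.4% fell and 20.4% rose, 40.8% in either direction, so 4 called of 10 is near the share of all genes that changed, and the genes called were all lower. The median log2 difference of the 10, KO minus WT, was -1.01, against 0.02 over all tested genes. In 8 of the 10 the 2 KO levels were under all 3 WT levels, against 34.0% of all tested genes, and in 0 of the 10 they were over all 3, against 32.5%. The groups overlapped for Scd1 and Srebf1, and 66.4% of all tested genes had groups that did not overlap. These are levels in bulk RNA, in which fewer cells of a type and less RNA per cell cannot be told apart.

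**Figure D1:**
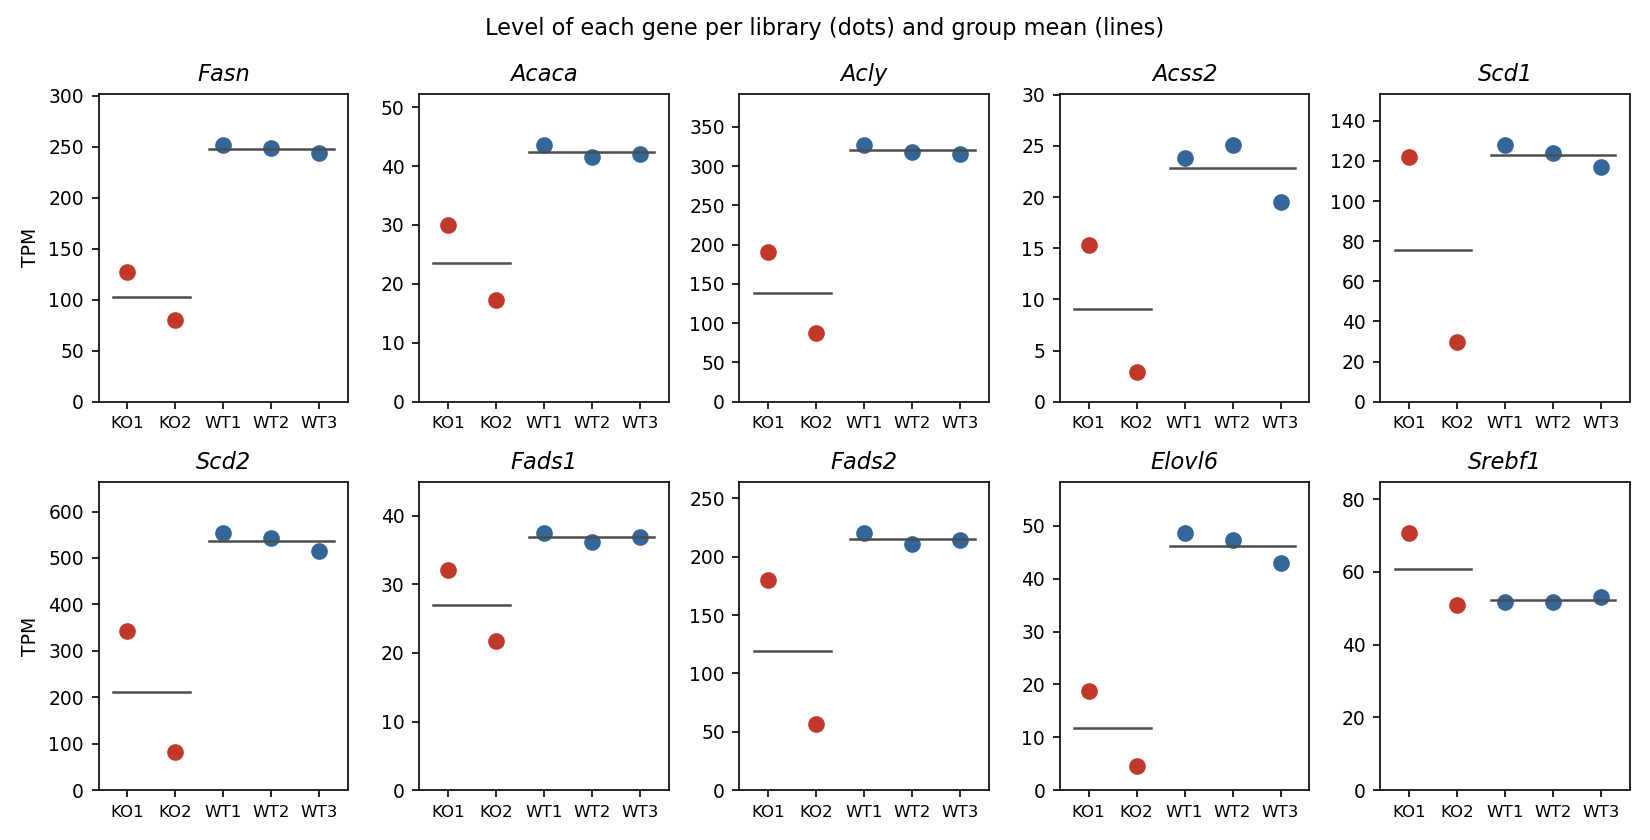
Level in TPM (vertical axes, from 0, a different scale for each gene) of the 10 genes in the libraries KO1, KO2, WT1, WT2 and WT3; dots are libraries and lines are group means. The WT dots lie close together, and KO2 lies below KO1 in all 10 panels.

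The acetyl-CoA and malonyl-CoA steps came first in the pathway. Acly (NCBI 104112, on the minus strand of chromosome 11 at 100476352 to 100528000 in GRCm38.p6), ATP citrate lyase, was at 191 and 87.8 TPM in KO1 and KO2, against 327, 318 and 315 TPM in WT1, WT2 and WT3. It averaged 139 ± 72.8 TPM in KO (SD, n = 2) and 320 ± 6.49 TPM in WT (SD, n = 3), with a log2 difference, KO minus WT, of -1.18 ± 0.33 (SE; edgeR adjusted p = 0.0378). Both KO libraries were below the WT libraries, and the gap between the KO libraries was larger than the range within WT. Acss2 (60525; chromosome 2, 155518043 to 155562743, plus strand), which activates acetate, was the lowest of the set, at 15.3 and 2.88 TPM in KO1 and KO2, against 23.8, 25.1 and 19.5 TPM in WT1, WT2 and WT3. Its groups did not overlap, but with KO2 at 12.8% and KO1 at 68.3% of the WT mean in CPM (counts scaled by library size) its log2 difference of -1.30 ± 0.65 (SE) did not pass (edgeR adjusted p = 0.159). KO2 rested on 86 counts for this gene. Acaca (107476; chromosome 11, 84129635 to 84401651, plus strand), acetyl-CoA carboxylase, which makes malonyl-CoA, was at 30.0 and 17.3 TPM in KO1 and KO2, against 43.6, 41.6 and 42.1 TPM in WT1, WT2 and WT3. The log2 difference was -0.82 ± 0.24 (SE; edgeR adjusted p = 0.0401).

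Fasn had the smallest SE of the 4 genes that fell. Fasn (14104; chromosome 11, 120805947 to 120825166, minus strand), fatty acid synthase, was at 127 and 79.7 TPM in KO1 and KO2, against 252, 249 and 244 TPM in WT1, WT2 and WT3. It averaged 103 ± 33.5 TPM in KO (SD, n = 2) and 248 ± 4.17 TPM in WT (SD, n = 3). The fitted log2 difference was -1.24 ± 0.21 (SE), a level 2.36-fold lower in KO (edgeR adjusted p = 0.00987), the smallest adjusted p of the set. Fasn counts were 12554 and 7943 in KO1 and KO2, against 23914 to 24617 in WT, so counting error is small beside the gap between the KO libraries. Elovl6 (170439; chromosome 3, 129532386 to 129638495, plus strand), the elongase from palmitate to stearate, had the largest fall of the set. It was at 18.7 and 4.64 TPM in KO1 and KO2, against 48.6, 47.3 and 42.9 TPM in WT1, WT2 and WT3. Its log2 difference was -1.96 ± 0.57 (SE), a level 3.90-fold lower in KO (edgeR adjusted p = 0.0421). It was at 41.1% of the WT mean CPM in KO1 and at 10.2% in KO2.

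The delta-9 desaturases lie in the Scd cluster on chromosome 19, with 87585 bases between Scd2 and Scd1, an interval that also holds Scd4. Scd2 (20250; 44293676 to 44306864, plus strand) had the highest level of the set in WT, and it was at 342 and 81.3 TPM in KO1 and KO2, against 553, 544 and 515 TPM in WT1, WT2 and WT3. The groups did not overlap, and the log2 difference of -1.32 ± 0.59 (SE) did not pass (edgeR adjusted p = 0.126). Scd1 (20249; 44394450 to 44407709, minus strand) was at 122 and 29.9 TPM in KO1 and KO2, against 128, 124 and 117 TPM in WT1, WT2 and WT3. KO1 lay within the WT range and KO2 was at 24.6% of the WT mean CPM, so the difference of -0.68 ± 0.56 (SE) on the log2 scale did not pass (edgeR adjusted p = 0.366). Close copies can exchange reads in the authors' estimates. Of the stretches of 50 bases in annotated Scd1 and Scd2 transcripts, 4.56% and 3.97% also occur in transcripts of other genes, among them Scd3 and Scd4. For Acaca that share was 30.4%, nearly all with Gm5182, and for Elovl6 3.98%, mostly with Gm11295, while for Fasn, Acly and Fads1 it was 0.

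The polyunsaturated desaturases also lie on chromosome 19, 81373 bases apart and on opposite strands. Fads2 (56473; 10062765 to 10101503, minus strand), the delta-6 desaturase, was at 180 and 57.1 TPM in KO1 and KO2, against 220, 211 and 214 TPM in WT1, WT2 and WT3. Fads1 (76267; 10182877 to 10196874, plus strand), the delta-5 desaturase, was at 32.0 and 21.7 TPM in KO1 and KO2, against 37.4, 36.2 and 36.9 TPM in WT1, WT2 and WT3. For both genes the KO libraries lay below the WT libraries. Neither difference passed: -0.83 ± 0.46 (SE) for Fads2 and -0.43 ± 0.17 (SE) for Fads1 on the log2 scale (edgeR adjusted p = 0.20 and 0.0922). Fads1 had the smallest difference of the 9 enzymes.

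Srebf1 (20787; chromosome 11, 60199084 to 60224186, minus strand), which encodes the transcription factor, was at 70.6 and 50.9 TPM in KO1 and KO2, against 51.8, 51.8 and 53.1 TPM in WT1, WT2 and WT3. In TPM KO1 was above every WT library, and KO2 was just below all of them. In CPM KO2 was at 113, against 113, 112 and 116 in WT1, WT2 and WT3. The difference of 0.25 ± 0.14 (SE) on the log2 scale did not pass (edgeR adjusted p = 0.222), and KO2 alone was at -0.01. The 9 enzymes had a median difference of -1.18, and whether Srebf1 differs from them was not tested. The table gives 1 value for the gene, so the transcripts that start at its different promoters were not told apart, and the processing of the protein was not measured.

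**Figure D2:**
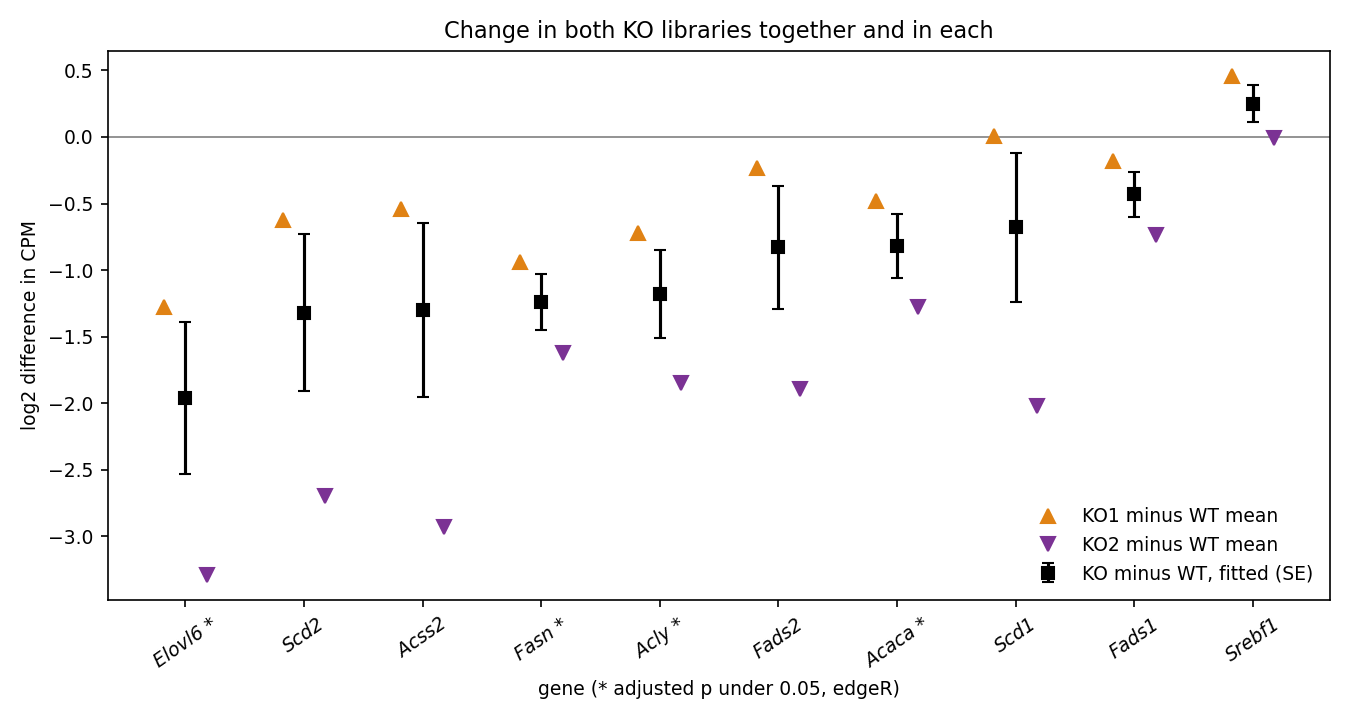
Log2 difference in CPM from WT (vertical axis) for each gene: black squares are the fitted KO minus WT differences with their SE, upward triangles KO1 alone and downward triangles KO2 alone, each against the WT mean. KO2 runs from -3.29 for Elovl6 to -0.01 for Srebf1 and KO1 from -1.28 for Elovl6 to 0.46 for Srebf1, with KO2 below KO1 for every gene.

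The size of the difference depended on the KO library. In all 10 genes KO2 was below KO1, where 49.8% of all tested genes were. In 6 of the 10, KO2 was below 0.5 of KO1 (in CPM), against 6.28% of all tested genes. Those 6 were Acss2, with a ratio of KO1 to KO2 of 5.34, Scd2 (4.23), Scd1 (4.09), Elovl6 (4.04), Fads2 (3.17) and Acly (2.18). The other 4 were Acaca (1.74), Fasn (1.60), Fads1 (1.48) and Srebf1 (1.39). The median log2 difference from the WT mean was -0.51 in KO1 and -1.87 in KO2, while over all tested genes it was -0.01 and 0.01. In WT the coefficient of variation of these genes in CPM was 1.63 to 12.6%, the highest that of Acss2, and in KO 23.0 to 96.8%. KO1 was at least 1 log2 unit below the WT mean for 1 of the 10, Elovl6, against 7.32% of all tested genes. KO2 was so for 8 of the 10, all but Fads1 and Srebf1, against 7.22%. With 1 library each, the difference between KO1 and KO2 has no replicate check.

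Summed over the 10 genes, the level was 1129 and 433 TPM in KO1 and KO2, against 1685, 1647 and 1599 TPM in WT1, WT2 and WT3. That is 68.7% and 26.4% of the WT mean. The make-up of the sum differed between the KO libraries. Scd2 took 30.3% of it in KO1 and 18.8% in KO2, against a mean of 32.7% in WT, and Fasn took 11.3% and 18.4%, against 15.1%. The order of levels in TPM was the same in the 3 WT libraries, from Scd2, Acly, Fasn, Fads2, Scd1, Srebf1, Elovl6, Acaca and Fads1 down to Acss2. In WT the neighbours Acaca and Elovl6 differed by little, at 42.4 ± 1.04 and 46.3 ± 2.95 TPM (SD, n = 3), and Fads2 and Fasn were at 215 ± 4.46 and 248 ± 4.17 TPM. Elovl6 ranked the seventh in WT and the ninth in both KO libraries.

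Ratios between genes within a library were close in KO1 and KO2 for some pairs and far apart for others. The ratio of Scd2 to Scd1 in TPM was 2.81 and 2.72 in KO1 and KO2, against 4.31, 4.38 and 4.38 in WT1, WT2 and WT3. Scd1 and Scd2 thus stood in nearly 1 ratio in KO1 and KO2, whose levels of each differed more than 4-fold. The ratio of Fasn to Acaca was 4.23 and 4.61 in KO1 and KO2, against 5.77, 5.99 and 5.78 in WT. The ratio of Srebf1 to Fasn was 0.556 and 0.639 in KO1 and KO2, against 0.206, 0.208 and 0.218 in WT, at 264% and 304% of the WT mean. In contrast, Fads2 to Fads1 was 5.63 in KO1, close to the 5.80 to 5.87 of WT, and 2.63 in KO2. Acly to Acss2 was 12.5 in KO1 and 30.5 in KO2, against 13.7, 12.7 and 16.1 in WT, so KO1 was just below the WT range and KO2 above it. Elovl6 to Fasn was 0.147 in KO1 and 0.0582 in KO2, against 0.193, 0.19 and 0.176 in WT. The sum of Scd1 and Scd2 to Fasn was 3.66 in KO1, above WT, and 1.4 in KO2, below the 2.71, 2.68 and 2.6 of WT. These ratios do not depend on how the libraries are scaled, and no test was run on them.

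**Figure D3:**
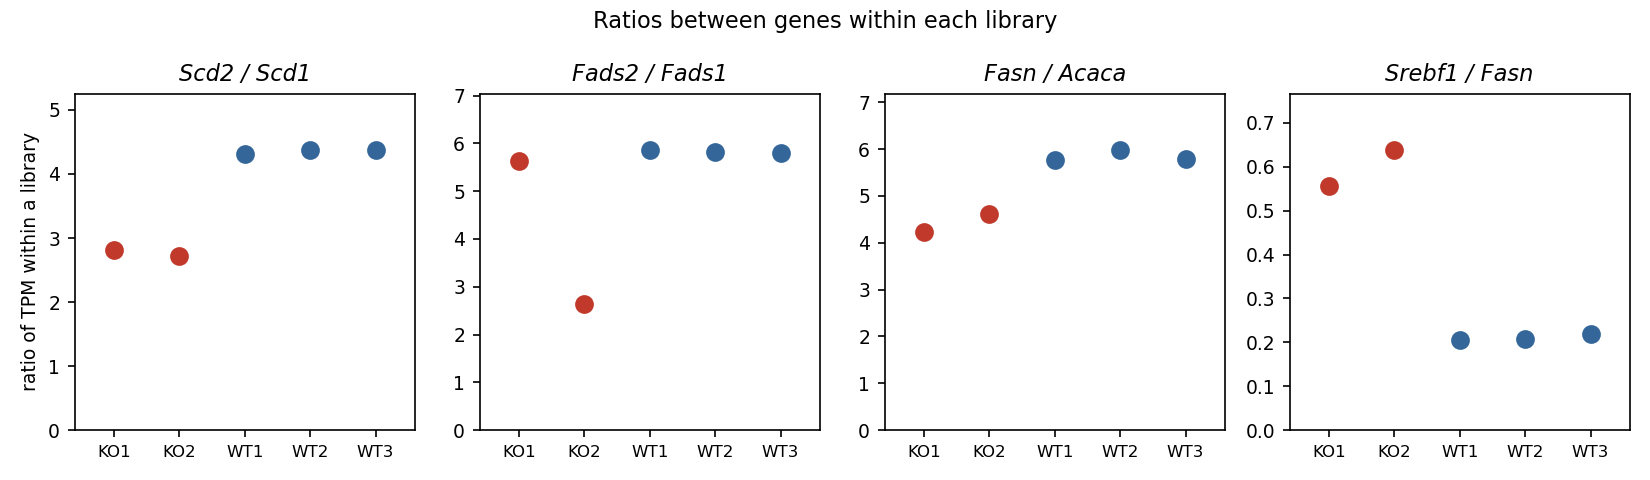
Ratio of TPM between 2 genes (vertical axes, from 0) within each of the libraries KO1, KO2, WT1, WT2 and WT3. Scd2 to Scd1 is at 2.81 and 2.72 in KO1 and KO2 and at 4.31 to 4.38 in WT, while Fads2 to Fads1 is low in KO2 alone, at 2.63.

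How far the 4 calls hold was followed with each library left out. Without WT1, WT2 or WT3, 0, 1 and 1 of the 10 genes were lower, and the 1 was Fasn in both cases. The adjusted p of Fasn was 0.0516, 0.0478 and 0.0481 without WT1, WT2 and WT3 (edgeR; range over its alternatives 8.85e-07 to 0.0516). Acaca (0.12, 0.108 and 0.114; range 2.42e-06 to 0.12), Acly (0.113, 0.106 and 0.107; range 5.82e-07 to 0.113) and Elovl6 (0.118, 0.113 and 0.108; range 5.13e-07 to 0.118) each lost the call without any 1 of the WT libraries by edgeR's adjusted p. In those fits 15.2, 17.7 and 17.5% of all tested genes were called. Their log2 differences moved little, to between -0.84 and -0.80 for Acaca, -1.19 and -1.16 for Acly, and -2.01 and -1.93 for Elovl6.

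With 1 KO library left out, more genes were called, with the lone KO library assumed to vary like the WT libraries. Without KO1, that is with KO2 alone, all 9 enzymes were lower and Srebf1 did not pass, at a log2 difference of -0.02 (edgeR adjusted p = 0.767; range over its alternatives 0.000141 to 0.767). Without KO2, 8 enzymes were lower, Srebf1 was higher by 0.47 and Scd1 did not pass, at 0.02 (edgeR adjusted p = 0.827; range over its alternatives 8.44e-07 to 0.827). In these fits 59.7 and 61% of all tested genes were called. The log2 differences without KO1 and without KO2 were -1.63 and -0.93 for Fasn, -1.29 and -0.47 for Acaca, -1.86 and -0.71 for Acly and -3.31 and -1.27 for Elovl6. With a separate spread for each group (limma-voom), the 4 calls held and Scd2 passed as well, at -1.66 (adjusted p = 0.0252; range over its alternatives 3.13e-07 to 0.245). That fit called 24.6% of all tested genes. Scd2 also passed by DESeq2 (adjusted p = 0.0331).

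**Figure D4:**
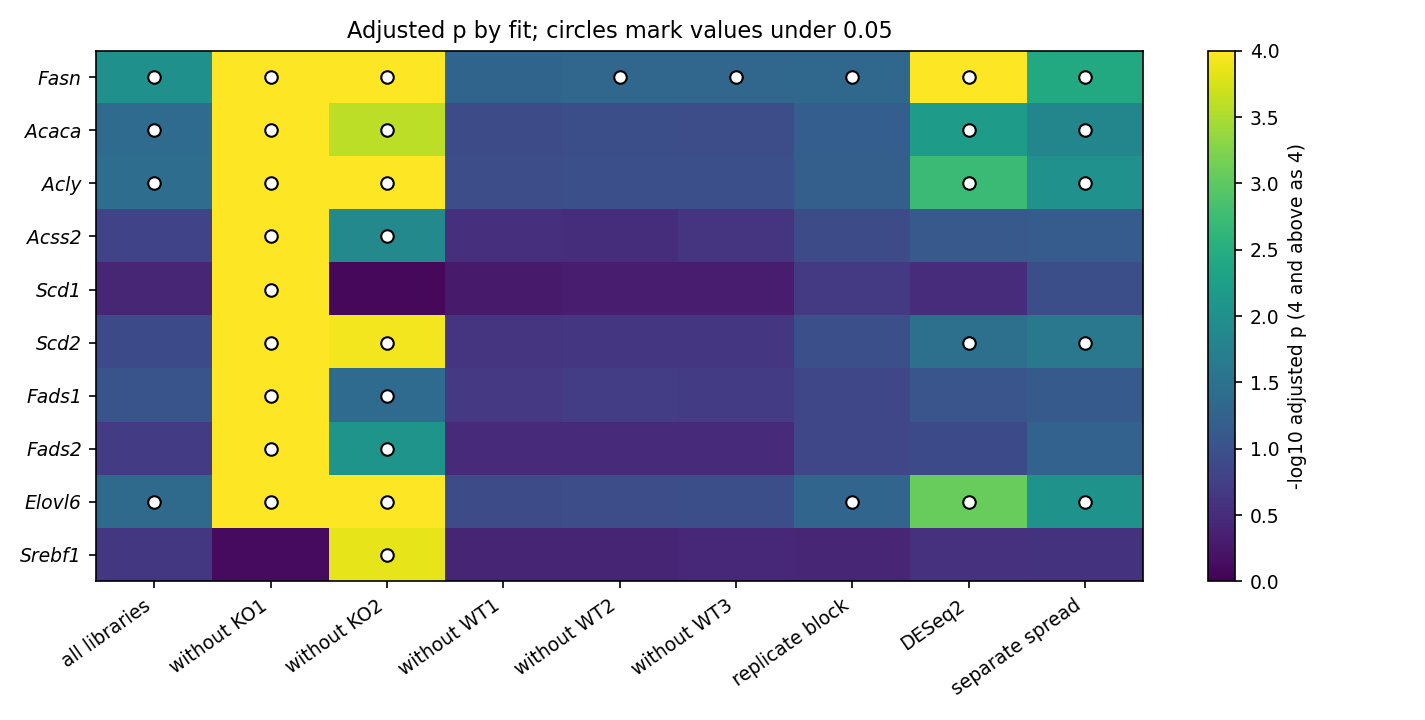
Adjusted p of each gene (rows) in 9 fits (columns): all libraries, each library left out, the replicate number as a block, DESeq2, and limma-voom with a separate spread per group. Colour gives -log10 of the adjusted p, with 4 and above drawn as 4, and white circles mark values under 0.05; Fasn has a circle in every column but the one without WT1.

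The rest of the pathway was read from 9 lists of 112 other genes, 101 of them tested, of which 25 fell, 13 rose and 63 did not pass, where 20.4% of all tested genes fell and 20.4% rose. Among the controls of SREBP and related factors 3 of 12 fell and 3 rose. Insig1, which retains SREBP in the endoplasmic reticulum and is itself a target of it, was at 66.7 and 26.3 CPM in KO1 and KO2, against 158, 150 and 148 CPM in WT1, WT2 and WT3, and fell by 1.71 on the log2 scale (edgeR adjusted p = 0.0215). Mid1ip1, a protein that promotes assembly of acetyl-CoA carboxylase into filaments, fell by 1.04 in the same fit, with 192 and 230 CPM in KO1 and KO2, against 436, 452 and 415 CPM in WT. Nr1h2, the liver X receptor beta, rose by 0.57, and Insig2, the relative of Insig1, rose by 0.48. Srebf2 and Scap, the other SREBP gene and the SREBP escort protein, did not pass, at -0.11 and 0.07.

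Genes of acetyl-CoA and NADPH supply had a median log2 difference of -0.36, and 10 of 11 were negative, where 6271 of all 12957 were. Of the 11, 2 fell, 0 rose and 9 did not pass, where 20.4% of all tested genes fell and 20.4% rose. Pdha1 fell by 0.29 and Pdhb, like it a subunit of pyruvate dehydrogenase, fell by 0.36, and Mdh1, malate dehydrogenase, and Me1, the NADPH-forming malic enzyme, did not pass, at 0.27 and -0.44. Of 8 other synthesis and carboxylation enzymes 1 fell and 2 rose. Ndufab1, the mitochondrial acyl carrier protein, fell by 0.54. Acacb, the second acetyl-CoA carboxylase, rose by 1.61 in the edgeR fit, with 2.45 and 1.93 CPM in KO1 and KO2, against 0.439, 0.774 and 0.922 CPM in WT, and Mlycd, which breaks malonyl-CoA down, rose by 0.95. Mcat, of mitochondrial fatty acid synthesis, did not pass, at -0.15.

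Around Elovl6 in the elongation cycle, 2 of 9 genes fell and 1 rose, where 20.4% of all tested genes fell and 20.4% rose. Hsd17b12, the ketoacyl-CoA reductase of elongation, fell by 0.82, with 102 and 115 CPM in KO1 and KO2, against 204, 188 and 182 CPM in WT, and Elovl5, the elongase of polyunsaturated fatty acids, fell by 0.47. Hacd1, a dehydratase of the cycle, rose by 1.13 to 27.0 and 29.1 CPM in KO1 and KO2, against 13.1, 12.4 and 12.9 CPM in WT, and Hacd2 did not pass, at 0.35. Of 10 other desaturases and electron donors 1 fell and 1 rose. Cyb5b, a mitochondrial cytochrome b5, fell by 0.37, and Cyb5r2, a cytochrome b5 reductase, rose by 1.84 at low levels of 1.22 and 3.43 CPM in KO1 and KO2, against 0.582 to 0.726 CPM in WT. The call for Cyb5r2 was lost without KO2, at 0.92 (edgeR adjusted p = 0.0713; range over its alternatives 0.000314 to 0.112). Cyb5r3 and Scd3, the main reductase and another stearoyl-CoA desaturase, did not pass, at 0.34 and -0.79.

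Downstream of synthesis, genes moved both ways, as did all tested genes, of which 20.4% fell and 20.4% rose. Of 7 acyl-CoA synthetases 2 fell and 3 rose: Acsl4 and Acsl5 fell by 0.91 and 0.39, and Slc27a1 and Slc27a3, fatty acid transport proteins with synthetase activity, rose by 1.13 and 1.62. Of 13 genes of triglyceride and phospholipid assembly 2 fell and 2 rose. The acyltransferases Agpat3 and Agpat5 fell by 0.85 and 0.54, Agpat4 rose by 1.13, and Mogat1, a monoacylglycerol acyltransferase, rose by 4.45 in the fit, at 2.45 and 1.35 CPM in KO1 and KO2, against 0 to 0.194 CPM in WT. Of 8 genes of uptake and lipid droplets 1 fell and 1 rose: Lpl, the lipoprotein lipase that Angptl4 inhibits, fell by 0.30 and the droplet protein Plin3 rose by 0.30, while Lipe and Vldlr did not pass, at -0.67 and 0.32. The medians of these 3 lists were 0.01, 0.07 and 0.05.

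Cholesterol synthesis and uptake was, of the 9 lists, the one with a median nearest to that of the fatty acid genes. Of its 23 genes 11 fell, 12 did not pass and 0 rose, where 20.4% of all tested genes fell and 20.4% rose. The median log2 difference was -1.01, equal to that of the 10 fatty acid genes. The medians against WT were -0.64 in KO1 and -1.66 in KO2. In all 23 genes KO2 was below KO1, where 49.8% of all tested genes were. Dhcr7 and Hsd17b7, of the last steps of cholesterol synthesis, fell by 1.31 and 1.29, Stard4, a sterol carrier, fell by 1.46, and Lss, lanosterol synthase, fell by 1.83. Whether this list differs from the fatty acid genes was not tested.

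The remaining genes of 2 KEGG pathways, without the 10 genes and added after values were seen, did not share the low median. Of 22 tested in the biosynthesis of unsaturated fatty acids 5 rose, 2 fell and 15 did not pass, with a median log2 difference of 0.25. KO was above all WT libraries in 8 and below all in 2, against 32.5% and 34.0% of all tested genes. Over all tested genes 20.4% rose and 20.4% fell. Of the 22, Hacd1, Acox3, Acot1, Acaa1a and Hsd17b4 rose, and Hsd17b12 and Elovl5 fell. Acox3, Acot1, Acaa1a and Hsd17b4 were not followed singly in the alternatives. Of 12 tested in fatty acid biosynthesis 2 rose, 2 fell and 8 did not pass, with a median of -0.02. Both share genes with the 9 lists, such as Hacd1, Hsd17b12 and Acsl4.

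**Figure D5:**
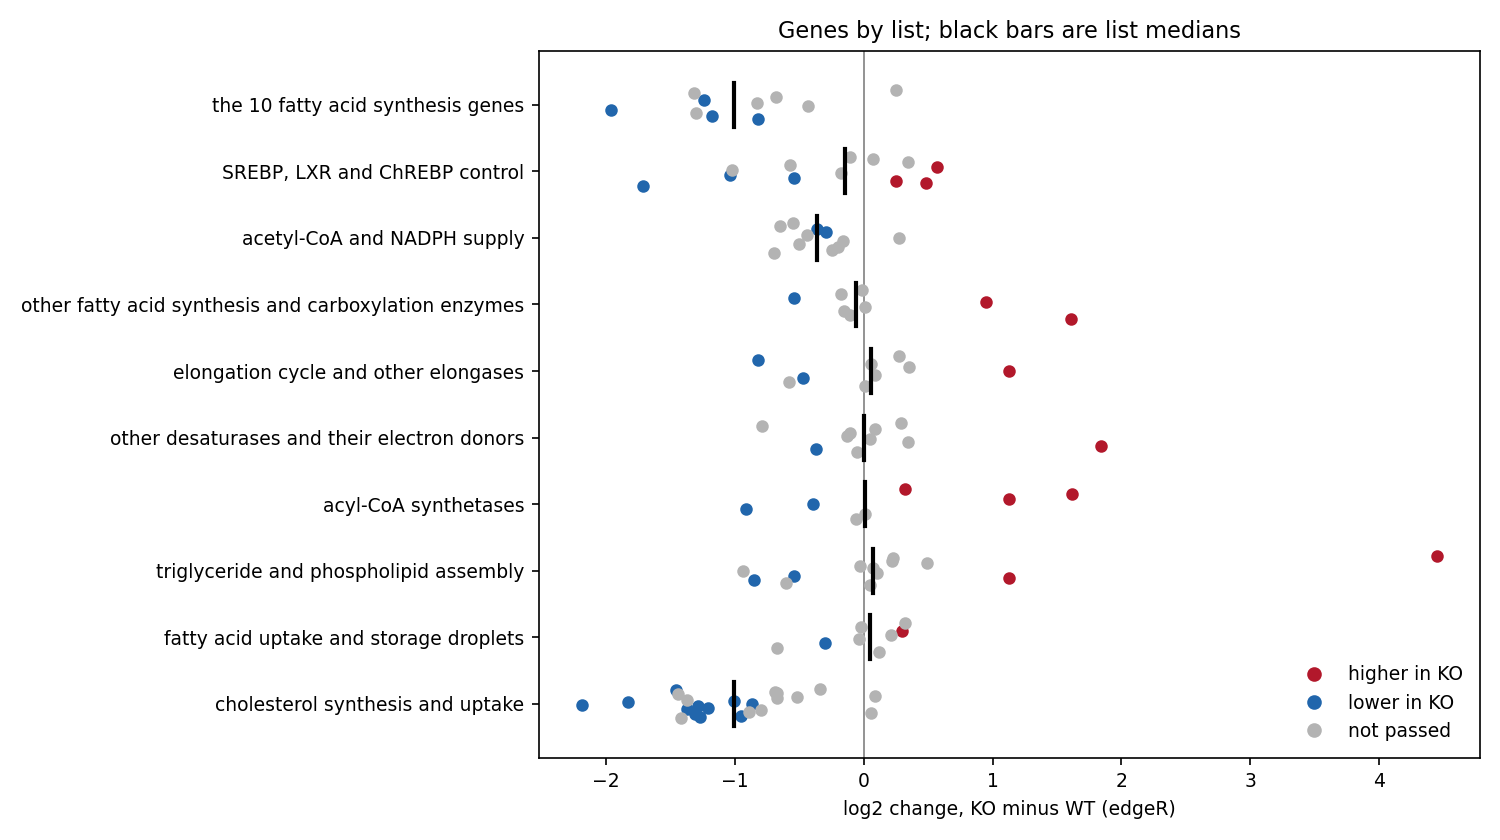
Log2 difference, KO minus WT (horizontal axis, edgeR), of each tested gene in the fatty acid synthesis set and in the 9 lists of neighbouring pathways (rows); blue and red dots are genes lower and higher in KO at adjusted p under 0.05, grey dots did not pass, and black bars are medians. The medians are -1.01 for the fatty acid synthesis genes and for cholesterol synthesis and uptake, and between -0.36 and 0.07 for the other 8 lists.

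Across the 9 lists, 28 of the 36 genes named by smallest p passed. Of those 28, 9, 11 and 11 kept the call without WT1, WT2 and WT3. The 9 that held without each WT library were Slc27a1, Dhcr7, Hsd17b7, Hacd1, Hsd17b12, Ndufab1, Mid1ip1, Nr1h2 and Agpat3. Over all 101 genes, without WT1, WT2 and WT3, 6, 7 and 6 were lower and 3, 4 and 5 were higher. In those fits 7.6, 8.94 and 8.77% of all tested genes were lower, and 980, 1133 and 1116 genes were higher. For cholesterol synthesis and uptake the 11 lower became 2, 2 and 2 in that order. For acetyl-CoA and NADPH supply the 2 lower became 0, 0 and 0.

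Markers of other cells moved between the libraries too. The 14 fibroblast markers summed to 414 and 206 TPM in KO1 and KO2, against 243 to 247 TPM in WT. Most of that was Fbln2, which did not pass, at 252 and 123 TPM in KO1 and KO2, against 174 to 184 TPM in WT. Of 13 tested 7 rose, among them Postn and Col6a1, by 6.87 and 5.42 on the log2 scale. Over all tested genes 20.4% rose. Postn was at 10.5 and 4.29 TPM in KO1 and KO2, against 0.03 to 0.13 TPM in WT. Col6a1 was at 4.05 and 1.61 TPM in KO1 and KO2, against 0.05 to 0.07 TPM in WT. Of the sebocyte markers, from the gland cells of skin that make most of its lipid, 10 were in the table and summed to 63.9 and 33.8 TPM in KO1 and KO2, against 17.6 to 19.4 TPM in WT. Most of that was Mgst1, a glutathione transferase, at 57.0 and 22.9 TPM in KO1 and KO2, against 9.78 to 10.2 TPM in WT. The defining sebocyte genes Mc5r and Pparg were at most 0.05 and 0.11 TPM in any library. The 7 markers of differentiated keratinocytes in the table summed to 1639 and 2020 TPM in KO1 and KO2, against 1185 to 1609 TPM in WT. Of the 7, 2 rose, Krt1 by 4.26 and Krt10 by 2.32, both more in KO1 than in KO2. Krt1 was at 267 and 29.7 TPM in KO1 and KO2, against 5.99 to 10.5 TPM in WT. Krt10 was at 12.7 and 2.84 TPM in KO1 and KO2, against 0.84 to 1.49 TPM in WT. The other 5 did not pass, at -0.65 for Ivl, whose KO libraries were both below WT, 0.51 for Sbsn, 0.54 for Lor, 0.28 for Flg and 0.21 for Krtdap. Lor and Flg were lower than the WT mean in KO1, at -0.29 and -0.91, and higher in KO2, at 1.09 and 1.07. Of the 8 basal keratinocyte markers 2 rose and 3 fell, with a median log2 difference of 0.21. Itga6, Trp63 and Itga3 fell by 0.91, 0.73 and 0.64, and Krt15 and Itgb4 rose by 3.06 and 0.49. Krt15 was at 3.08 and 1.66 TPM in KO1 and KO2, against at most 0.58 TPM in WT. Immune, endothelial and melanocyte markers summed to 65.5 and 56.3, 1.5 and 1.56, and 5.07 and 7.62 TPM in KO1 and KO2, against 41.3 to 47.2, 2.21 to 2.36 and 4.78 to 5.75 TPM in WT. The immune sum was nearly all Cd68, which rose by 0.52, and Ptprc, the general leukocyte marker, was at most 0.06 TPM. Kdr fell by 1.54, and Pecam1, Tyrp1, Tyr and Awat2 were at -0.33, 1.15, -0.29 and 0.96, of which Awat2 passed. Of the markers named here as changed, Krt1, Krt10, Kdr, Mgst1, Awat2 and Cd68 lost the call without at least 1 WT library. Their edgeR adjusted p was up to 0.0807, 0.0984, 0.0998, 0.0611, 0.116 and 0.0837 over these 3 fits. Krt15, Itgb4 and Itga3 were not followed in the alternatives. With the replicate block Itga6, Trp63, Krt1, Krt10, Kdr, Awat2 and Cd68 lost the call. Krt1 and Krt10 also lost it by limma-voom with 1 spread for both groups and on log2(TPM + 1) with no minimum TPM. Krt10 lost it on log2(TPM + 1) with a minimum TPM as well. With a separate spread per group Kdr, Awat2 and Cd68 lost the call. Awat2 also lost it by DESeq2 and with no count filter. The part of these markers in the differences of the fatty acid genes was not tested.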

How the data were processed

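RNA-seq of 2 Angptl4 KO and 3 WT libraries, grouped by title, was compared. The authors deposited 1 table of expected counts, TPM and FPKM per gene. RSEM 1.3.1 and build GRCm38.p6 stand in the submitters' processing notes for these deposited expected counts, and RSEM divides reads that match several genes. The authors scaled TPM by length and library total, as the deposited column names and sums show, and FPKM was not used. No aligner or strand setting is stated in the sources used here, and the replicate numbers were not taken as pairs.

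Expected counts were rounded and tested with edgeR 4.0.16 in R 4.3.3 (filterByExpr, TMM, quasi-likelihood test, two-sided, Benjamini-Hochberg over 12957 genes, threshold 0.05). Differences of single KO libraries use log2 CPM with a prior count of 2. Totals of 20283084 to 20773407 counts make 1 CPM about 20.3 to 20.8 counts. The 16 alternatives used edgeR, DESeq2 1.42.0 and limma 3.58.1.

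The genes and lists were chosen with earlier results of these data known. Named are the 10 genes, Angptl4, up to 4 genes with the smallest p per pathway list and up to 2 per cell type list. Srebf2, Scap, Ivl, Sbsn, Lor, Flg, Krtdap, Mc5r, Pparg, Ptprc, the neighbours in shared sequence and the ratios were chosen after values were seen. So were Fbln2, Krt15, Itgb4, Itga3, Acox3, Acot1, Acaa1a and Hsd17b4.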

Additional observations from a re-analysis of the deposited data

How the results depend on the processing

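Fasn, Acaca, Acly and Elovl6 kept their direction in all 16 alternatives, and Acaca also lost its call on log2(TPM + 1) with no minimum TPM. Calls lost without WT libraries are given above. The replicate numbers pair the libraries in no stated way, and same-numbered libraries did not deviate together (correlations of 0.01 and 0.07 over genes). With the replicate block 2 of the 10 genes were lower, Fasn and Elovl6, and 1598 genes were called in all, 804 higher and 794 lower. Of the pathway genes 3 were then higher and 11 lower. With a separate spread per group 3192 genes were called, 1625 higher and 1567 lower. Of the pathway genes 5 were then higher and 31 lower, against 13 and 25 in the edgeR test of all libraries. With each library left out in turn, 1957 to 8068 genes were called, 980 to 3975 higher and 977 to 4093 lower. In those fits 0 to 9 of the 10 genes were lower and 0 to 1 higher, and 6 to 57 pathway genes were lower and 3 to 31 higher. The log2 difference changed sign with 1 KO library left out for Scd1 (-2.03 to 0.02), Srebf1 (-0.02 to 0.47), Hacd2 (-0.02 to 0.65), Cyb5r3 (-0.03 to 0.64) and Tyr (-0.92 to 0.14), none of which had passed. The cause of these changes between fits was not tested. The lowest count of the 10 genes was 86, for Acss2 in KO2, and low-count pathway genes such as Mogat1 and Scd3 are less precise.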
